A study of Homo sapiens with 6 samples.

Results

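The genes described here are the 48 subunits and assembly factors of the proteasome that carry a PSM symbol, out of 39012 genes in the expression table. They were chosen by name alone, as symbols made of PSMA to PSMG and a number. Of 98 rows that begin this way, 6 hyphenated antisense or divergent transcripts were left out, as were 44 symbols ending in P or in P and digits. Of those 44 rows, 42 are named as pseudogenes. The other two, PSMC3IP and PSME3IP1, are genes named for binding a proteasome protein and are no subunits. Of the 48 genes, 47 had a mean of 10 or more reads over the libraries and were tested.

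The proteasome degrades proteins tagged with ubiquitin. Its barrel-shaped 20S core stacks rings of alpha subunits (PSMA) on rings of beta subunits (PSMB), and PSMB5, PSMB6 and PSMB7 carry the protease sites. In immune cells, or after interferon, PSMB8, PSMB9 and PSMB10 can take their places and form the immunoproteasome, which favours peptides that fit HLA class I. The 19S cap, with PSMC ATPases and PSMD subunits, recognises and unfolds substrates, and other activators (PSME) can open the core in its place.

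Transcripts were measured by RNA-seq in Jurkat, an established human line from a T cell leukaemia. In 3 libraries the cells stably overexpressed SCML4, a Polycomb-group protein, and in 3 they carried an empty vector (EV). All 6 samples had received PMA at 100 ng/ml with ionomycin at 1 µM for 6 h, which together activate T cells past their receptor, so every level below is a level in stimulated cells. Whether replicate libraries stem from different cultures or clones is not labelled, and the p-values then describe library-to-library spread, which may be technical. One label field calls the cells an ouabain-induced line, while the others name Jurkat.

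Libraries held 8953671 to 10336597 reads, recovered from the deposited FPKM, and levels are given as reads per 1000000 of the library (CPM). Where no read was found, as many as 3 remain possible, which is 0.29 to 0.335 CPM depending on the library and covers counting error only. All 12 T cell markers examined had reads in every library, with summed levels of 3247.6 to 3331.4 CPM in SCML4 and 2950.4 to 3222.5 CPM in EV. Of 6 B cell markers, 5 were under 1 CPM on average, PAX5 and CD22 having no read, while CD79A averaged 28.7 CPM. The 6 summed to 30.7 to 33 CPM in SCML4 and 21.6 to 33.9 CPM in EV. The SCML4 transcript had 62.9, 63.6 and 56.5 CPM in the SCML4 libraries and 0.727, 0.223 and 0.103 CPM in the EV libraries. It was the only gene of 14160 to pass the test between the groups (limma-trend, Benjamini-Hochberg adjusted p = 1.64e-09). Of the 6 libraries, EV replicate 1 was the outlying one. It lay at -30.3 on the first principal component, against 2.29 to 8.12 for the rest, and its deviations followed GC content with a Spearman correlation of -0.52, against 0.04 to 0.3 elsewhere. Results are therefore also given without it.

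Nearly all proteasome genes were read well above the floor in both groups, and none of them passed the test between SCML4 and EV. Among the 47 tested genes, limma-trend on log2(CPM + 1) called 0 at an adjusted p under 0.05, where 0.00706% of all tested genes were called. At an unadjusted p under 0.05 there was 1 of 47, PSMD3, against 5.27% of all genes. Limma-voom likewise called 0 and had 1 at an unadjusted p under 0.05. The smallest adjusted p of any proteasome gene was 0.866. The log2 difference, SCML4 minus EV, was positive for 30 of the 47 genes and for 52.4% of all tested genes. Its median was 0.041 over the 47 and 0.008 over all genes, and without EV replicate 1 it was 0.01 over the 47, 26 of them positive. In bulk RNA, a change in the share of cells and a change in RNA per cell cannot be told apart.

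The intervals show how large a difference in each gene row the fit allowed, on log2(CPM + 1) and without reads on pseudogene rows. At low levels the added 1 CPM shrinks differences, as for PSMA2, at -0.25 here and -0.29 by limma-voom. All 47 had a 95% interval within 1 log2 unit of 0, and 42 of the 47 lay within 0.5. For levels well above 1 CPM these are a 2-fold and a 1.41-fold difference. The lowest lower bound was -0.65, for PSMC1, and the highest upper bound was 0.56, for PSMD8.

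**Figure D1:**
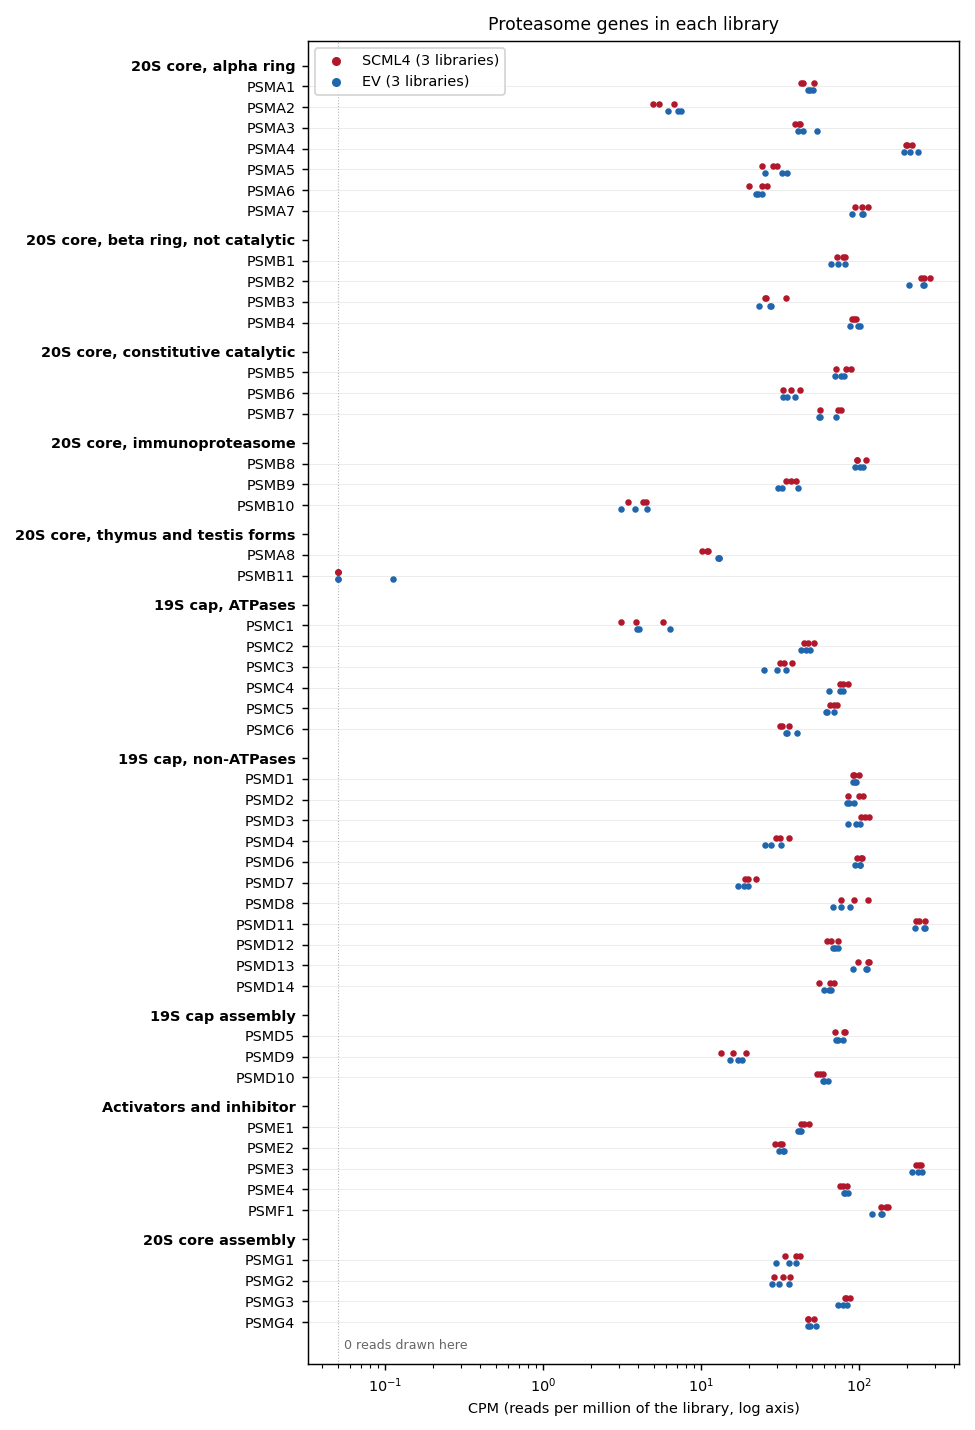
Level of each of the 48 proteasome genes in CPM (log axis) in the 3 SCML4 libraries (red, upper row of each gene) and the 3 EV libraries (blue, lower row), 1 point per library, grouped by role. For most genes the colours overlap, and the levels run from 1 read of PSMB11 in 1 EV library to 279.8 CPM for PSMB2. Counted on the gene rows alone, without pseudogene reads, PSMA2, PSMB10 and PSMC1 sit far below the other subunits of their rings.

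The alpha ring spans a wide range of read counts. Per kilobase of transcript, using the median length of a gene's basic coding transcripts in GENCODE 29, PSMA4 was the highest of the 7 constitutive alpha genes with a mean of 220.4 CPM per kb and PSMA2 the lowest with 5.82. PSMA4 had 215, 200.7 and 198 CPM in the SCML4 libraries and 191.7, 208.3 and 234.7 CPM in the EV libraries. PSMA2 had 4.96, 5.42 and 6.7 CPM in SCML4 and 7.16, 7.47 and 6.2 CPM in EV. The groups overlapped for both. The remaining alpha genes, PSMA1, PSMA3, PSMA5, PSMA6 and PSMA7, averaged 23.3 to 102 CPM. Log2 differences of the ring ran between -0.25 for PSMA2 and 0.05 for PSMA7, with 2 of 7 positive and a median of -0.08 (-0.05 without EV replicate 1, 1 positive).

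PSMA2 is one of several subunits for which most reads lie on rows named as pseudogenes, which are mostly intronless copies of an mRNA elsewhere in the genome. Of the 42 pseudogene rows, 25 had a read, and they name 13 of the 48 genes. They held 10445, 10804 and 9018 reads in the SCML4 libraries and 9266, 9848 and 10813 in the EV libraries, between 23.2% and 24.6% of all reads on proteasome genes and pseudogenes together. That pooled share differed little between libraries of either group. PSMA6P1 and PSMC1P1 alone took 75.6% of these pseudogene reads. For single genes the share moved more, from 52% to 65.5% for PSMC2 and from 29.7% to 42.7% for PSMD7. For PSMA1 it was 35.3%, 33.4% and 30.2% in SCML4 and 27.2%, 29.3% and 28.6% in EV. PSMA1P1 had 23.9, 21.5 and 22.6 CPM in SCML4 and 19, 20.1 and 18.9 CPM in EV (adjusted p = 0.866 by limma-trend). Upward separation of this kind occurred in 6.29% of all tested genes.

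For PSMC1, the Rpt2 ATPase of the cap, the row of the gene held 28, 40 and 51 reads in the SCML4 libraries and 61, 36 and 38 reads in the EV libraries. PSMC1P1 held 1755, 1795 and 1591 reads in SCML4 and 1354, 1848 and 1873 in EV. Between 95.7% and 98.4% of the reads of the pair were thus on the pseudogene, in every library. The copies are almost the same sequence. PSMC1 lies at chr14:90256495-90275429 and PSMC1P1 at chr3:68635705-68637024 (GENCODE 29, GRCh38, both on the plus strand), and over 1320 aligned bases they differ at 1 position, with an identical run of 884 bases. The exons of PSMC1 also share 75.8% of their bases with NRDE2 on the opposite strand, and whether reads were counted by strand is not given in the sources used here. For PSMA6, an alpha subunit, the gene row held 23.3 CPM on average while PSMA6P1 held 6116, 6399 and 5173 reads in SCML4 and 5719, 5603 and 6269 in EV, and 96% to 96.6% of the family's reads were on pseudogenes. PSMA6 (chr14:35278633-35317493) and PSMA6P1 (chrY:13286638-13287378), both on the plus strand, differ at 19 of 741 aligned positions, with a longest identical run of 130 bases. The following 60-base coding windows, bases 855 to 914 of the PSMC1 coding sequence and 110 to 169 of that of PSMA6, are those in which the copies differ most, with the differing bases in capitals.
PSMC1: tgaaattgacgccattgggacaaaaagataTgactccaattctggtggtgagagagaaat
PSMC1P1: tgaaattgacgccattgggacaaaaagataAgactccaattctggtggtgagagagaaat
PSMA6: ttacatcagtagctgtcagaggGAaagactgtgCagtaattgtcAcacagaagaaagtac
PSMA6P1: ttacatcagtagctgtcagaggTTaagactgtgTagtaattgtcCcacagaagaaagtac

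Only 1 base separates the PSMC1 copies in their window, so a read that lies elsewhere in the 884-base run fits both loci equally. The level of PSMC1 is therefore uncertain. PSMA6 and PSMA6P1 differ at more positions (19 of 741). Whether reads were divided between copies of PSMA6, or of other genes, was not tested, so those levels are uncertain too. With the pseudogene reads added, an alternative chosen after the data had been seen, PSMC1 had 196.7, 177.6 and 183.4 CPM in SCML4 and 147, 210.1 and 197.4 CPM in EV. Summed in the same way, PSMA6 had 700.8, 646.3 and 599.2 CPM in SCML4 and 621.1, 648.5 and 673.3 CPM in EV. Its summed level per kilobase, 723.8 CPM per kb, was then above PSMA4 at 220.4. The group differences stayed small. The summed log2 difference was 0.02 for PSMC1 (95% interval -0.22 to 0.27, adjusted p = 0.982 by limma) and 0.00 for PSMA6 (-0.17 to 0.17).

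Other genes with over 25% of their reads on pseudogene rows were PSMA2 (87.6%), PSMC2 (60.6%), PSMD12 (49.7%), PSMD7 (38.8%), PSME2 (32.1%) and PSMA1 (30.6%), pooled over the libraries. PSMA2P3 held 426, 446 and 359 reads in the SCML4 libraries and 434, 391 and 452 in the EV libraries. With all its pseudogene reads added PSMA2 came to 46.8 CPM per kb, close to PSMA1 summed in this way at 45.5 and PSMA3 at 48.7. The copies are less alike than those of PSMC1: PSMA2 and PSMA2P3 differ at 42 of 679 aligned positions, with a longest identical run of 41 bases. Whether the reads on PSMA2P3 came from PSMA2 was not tested. Of the 12 pseudogene rows with a mean of 10 or more reads, limma-trend called 0, also 0 at an unadjusted p under 0.05, and 6 had a positive log2 difference. Only 7 of these 12 were aligned with their gene, at an identity of 87.1% to 99.9%.

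**Figure D2:**
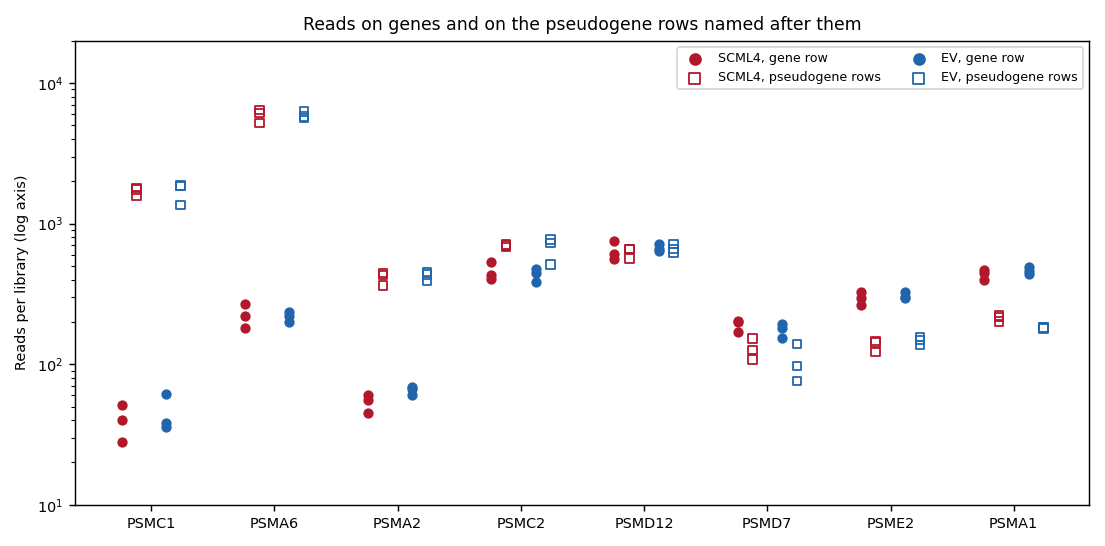
Reads per library (log axis) on the row of a proteasome gene (filled circles) and summed over the pseudogene rows named after it (open squares), for the 8 genes with over 25% of such reads on pseudogenes, with SCML4 in red at the left and EV in blue at the right of each gene. Pseudogene reads exceed gene reads for PSMC1, PSMA6, PSMA2 and PSMC2, in SCML4 and EV alike.

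In the beta ring, the 4 subunits without a protease site had means of 35.2 CPM per kb for PSMB3 to 97.6 for PSMB4. PSMB4 had 90.1, 92.5 and 95.9 CPM in SCML4 and 87.3, 100.6 and 98.1 CPM in EV. PSMB3 had 34.5, 25.6 and 25.5 CPM in SCML4 and 27.1, 23.1 and 27.6 CPM in EV. Neither pair of groups separated. PSMB2 had 260.5 ± 17.3 CPM in SCML4 and 239.6 ± 27.7 CPM in EV (mean ± SD, n = 3 each). The log2 differences of the 4 genes lay between -0.04 and 0.12, with a median of 0.10, or 0.01 without EV replicate 1.

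The constitutive protease subunits had between 32.9 and 88.4 CPM in every library. PSMB5, with the chymotrypsin-like site, had 88.4, 82.7 and 71.5 CPM in the SCML4 libraries and 70.2, 76.8 and 80.7 CPM in the EV libraries. PSMB6, with the caspase-like site, had 36.8, 42.1 and 32.9 CPM in SCML4 and 33.1, 34.7 and 39.5 CPM in EV. PSMB7, with the trypsin-like site, had 77, 73.7 and 56.4 CPM in SCML4 and 56.6, 55.3 and 71.4 CPM in EV. In each of the 3 genes the groups overlap. Their log2 differences were 0.09, 0.06 and 0.17 in that order, and 0.03, 0.00 and 0.12 without EV replicate 1. Per kilobase they averaged 77.7 CPM for PSMB5, 42.4 for PSMB6 and 66.4 for PSMB7.

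Of the immunoproteasome genes, PSMB8 and PSMB9 had levels per kilobase near those of their constitutive counterparts, whereas PSMB10 was scarce. PSMB8, which takes the place of PSMB5, had 111.2, 96.5 and 97.1 CPM in SCML4 and 94.5, 101.9 and 105.5 CPM in EV. PSMB9, which takes the place of PSMB6, had 39.8, 37 and 34.2 CPM in SCML4 and 30.6, 32.3 and 41 CPM in EV. PSMB10, which takes the place of PSMB7, had 3.42, 4.26 and 4.47 CPM in SCML4 and 3.11, 3.79 and 4.55 CPM in EV, a mean of 3.23 CPM per kb. The order PSMB8, PSMB9, PSMB10 held in all 6 libraries, on both scales. Log2 differences were 0.01, 0.10 and 0.07 in the same order, and -0.03, 0.02 and -0.04 without EV replicate 1. Exons of PSMB8 share 20.6% of their bases with PSMB8-AS1 on the opposite strand, and 34.8% of those of PSMB10 lie in another transcript of the same strand. Both levels are therefore uncertain, by an amount that these shares of bases do not measure.

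The ratio within each pair does not depend on the library total. Per kilobase, PSMB8 over PSMB5 was 1.13 ± 0.086 in SCML4 and 1.19 ± 0.0174 in EV (mean ± SD, n = 3 each). PSMB9 over PSMB6 was 1.09 ± 0.117 in SCML4 and 1.06 ± 0.0701 in EV. PSMB10 over PSMB7 was 0.0486 ± 0.0141 in SCML4 and 0.0502 ± 0.0055 in EV. Each pair of groups overlapped. Reads summed over the 3 immunoproteasome genes, divided by those summed over the 3 constitutive genes, gave 0.764, 0.693 and 0.844 in the SCML4 libraries and 0.802, 0.828 and 0.789 in the EV libraries. The log2 difference of that ratio was -0.076, smaller than the spread of 0.103 between replicates.

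**Figure D3:**
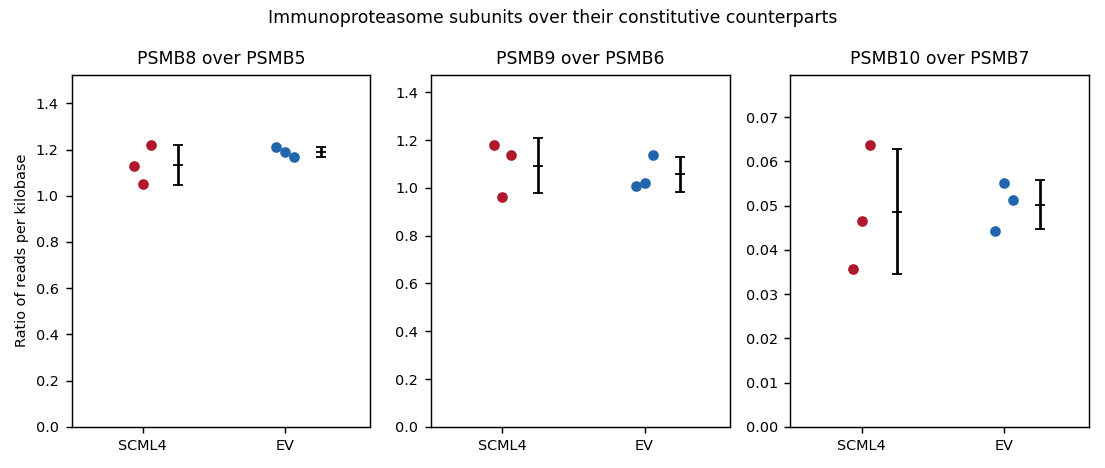
Ratio of reads per kilobase of each immunoproteasome gene over the constitutive gene it replaces, with 1 point per library, SCML4 at the left and EV at the right, and mean ± SD (n = 3) as a bar beside the points. The ratios of PSMB8 and PSMB9 lie between 0.961 and 1.22, those of PSMB10 between 0.0357 and 0.0637, and the groups overlap in all 3 panels.

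The tissue-restricted core subunits differed from each other. PSMB11, which replaces PSMB5 in the thymic cortex, had 1 read in EV replicate 2 and 0 in the other libraries, at or under the floor, and was not tested. PSMA8, the alpha subunit of the testis proteasome, had 11.1, 10.1 and 10.9 CPM in the SCML4 libraries and 13, 13 and 12.8 CPM in the EV libraries. All 3 SCML4 values were below all 3 EV values. The log2 difference was -0.25 (95% interval -0.55 to 0.04, adjusted p = 0.866 by limma-trend) and was also -0.25 without EV replicate 1. Separation of this kind occurred downward in 5.36% of all tested genes. Besides PSMA8 it was seen in PSMD10, and upward separation was seen in PSMD3 alone of the 47, against 6.29% of all genes.

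Among the ATPases of the cap, PSMC4 was highest per kilobase on the gene rows at 52.4 CPM per kb and PSMC1, described above, lowest at 1.54. That order depends on where reads were placed. With pseudogene reads added, PSMC1 came to 63.5 CPM per kb, above PSMC4, and PSMC2 to 45.4. PSMC4 had 85.5, 79.5 and 75.4 CPM in SCML4 and 64.6, 75.9 and 78.6 CPM in EV, a log2 difference of 0.14, or 0.05 without EV replicate 1. PSMC2, PSMC3, PSMC5 and PSMC6 averaged 32 to 66.8 CPM. Of the 6 ATPase genes, 4 had a positive log2 difference, with a range of -0.15 to 0.20 and a median of 0.08. Without EV replicate 1, 5 were positive and the median was 0.06.

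Of the 5 proteasome genes of smallest p, 3 belong to the other cap subunits. PSMD3 (Rpn3, chr17:39980797-39997960, GRCh38), a scaffold subunit of the lid, had 115.7, 108.1 and 102 CPM in the SCML4 libraries and 85.1, 96.1 and 101.6 CPM in the EV libraries. The lowest SCML4 library thus stood just above the highest EV library. Its log2 difference was 0.20 (95% interval 0.01 to 0.40, unadjusted p = 0.0405, adjusted p = 0.866 by limma-trend) and 0.13 without EV replicate 1. PSMD8 (Rpn12), also of the lid, had 114.1, 92.9 and 76.4 CPM in SCML4 and 68, 76.5 and 87.4 CPM in EV, a log2 difference of 0.27 (-0.01 to 0.56, adjusted p = 0.866 by limma-trend) with overlapping groups, or 0.19 without EV replicate 1. PSMD2 (Rpn1), which docks ubiquitin-binding shuttle factors, had 100.4, 105.7 and 85.4 CPM in SCML4 and 83.7, 85.9 and 93 CPM in EV, a log2 difference of 0.15, or 0.11 without EV replicate 1. None of these genes passed the test over all genes.

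At the extremes of this class, PSMD11 (Rpn6) had 262.8, 240.7 and 227.6 CPM in SCML4 and 225.8, 261.3 and 258.9 CPM in EV, with 74.2 CPM per kb on average. PSMD12 (Rpn5) had 66.7, 72.9 and 62.9 CPM in SCML4 and 68.6, 70.7 and 73.6 CPM in EV, with 20.2 CPM per kb on its own row. With its pseudogene reads added it came to 40.3 CPM per kb, above PSMD4 at 22.7, and was no longer the lowest. Over the 11 genes, which also include PSMD1, PSMD4, PSMD6, PSMD7, PSMD13 and the deubiquitinase PSMD14, 8 had a positive log2 difference, with a median of 0.06 and a range of -0.07 to 0.27. Without EV replicate 1, 7 were positive and the median was 0.04.

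**Figure D4:**
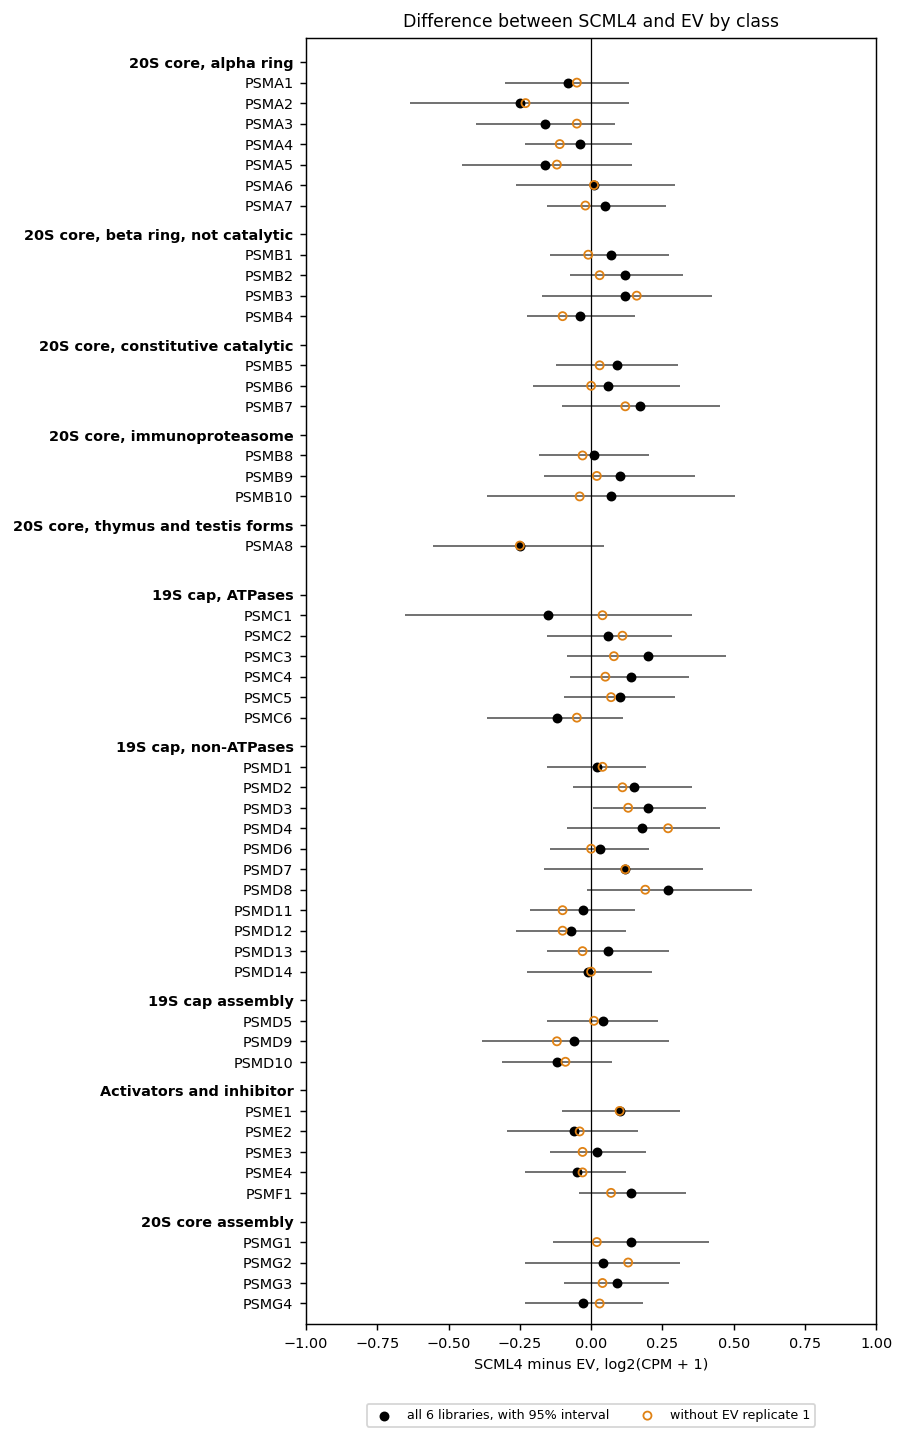
Log2 difference, SCML4 minus EV, on log2(CPM + 1) for the 47 tested genes by class, as a black point with its 95% interval from limma-trend, and the value without EV replicate 1 as an open circle. All intervals include 0 except that of PSMD3 (0.01 to 0.40), and without EV replicate 1 the open circle of PSMD3 lies at 0.13 and that of PSMD8 at 0.19.

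Chaperones of cap assembly were PSMD5, PSMD9 and PSMD10 (gankyrin), each of which holds ATPase subunits while the base is built. PSMD10 had 53.7, 58.6 and 56.1 CPM in SCML4 and 63.9, 59.3 and 60 CPM in EV, every SCML4 value being below every EV value. With its pseudogene reads added the groups overlapped, at 55.4, 60.3 and 58.3 CPM in SCML4 and 65.2, 60 and 62.1 CPM in EV. Its log2 difference was -0.12 (95% interval -0.31 to 0.07, adjusted p = 0.876 by limma-trend), and -0.09 without EV replicate 1. PSMD9 had 19.3, 15.9 and 13.4 CPM in SCML4 and 15.2, 17.1 and 18 CPM in EV. Per kilobase PSMD10 was the highest of the 3 at 75.2 CPM and PSMD9 the lowest at 7.14, with PSMD5 between them at 49.2. The log2 difference of PSMD5 was 0.04.

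The chaperones of core assembly work in pairs that guide the alpha ring, PSMG1 with PSMG2 and PSMG3 with PSMG4. PSMG1 had 39.7, 42 and 33.8 CPM in SCML4 and 29.6, 35.8 and 39.8 CPM in EV, and PSMG2 had 32.7, 36.7 and 29 CPM in SCML4 and 36.2, 31.3 and 28.2 CPM in EV. PSMG3 had 87, 82.6 and 81.8 CPM in SCML4 and 73.5, 78.7 and 84.1 CPM in EV, and PSMG4 had 51.5, 47.7 and 47.2 CPM in SCML4 and 53.5, 48.5 and 47.2 CPM in EV. Groups overlapped in all 4. Log2 differences lay between -0.03 for PSMG4 and 0.14 for PSMG1, with a median of 0.06, or 0.03 without EV replicate 1. PSMG2 over PSMG1 per kilobase was 1.26 ± 0.0387 in SCML4 and 1.38 ± 0.389 in EV, and PSMG4 over PSMG3 was 0.757 ± 0.0107 in SCML4 and 0.825 ± 0.11 in EV (mean ± SD, n = 3 each). Both ratios were chosen after their values were seen and carry no test. The wide spread in EV rests on replicate 1, at 1.81 and 0.945, against 1.05 to 1.29 and 0.729 to 0.801 in the other EV libraries.

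Of the alternative activators, PSME1 and PSME2 together form PA28, which assists immunoproteasomes, PSME3 forms a nuclear ring, and PSME4 is the large activator PA200. PSME1 had 44.7, 47.8 and 42.7 CPM in SCML4 and 41.9, 43 and 40.7 CPM in EV, and PSME2 had 32.5, 31.6 and 29.3 CPM in SCML4 and 33.6, 33 and 31 CPM in EV. PSME3 had 246.6, 237.7 and 227.8 CPM in SCML4 and 215.6, 249.3 and 236.6 CPM in EV, and PSME4 had 75.2, 83.9 and 78.5 CPM in SCML4 and 85, 81.2 and 80.5 CPM in EV. The groups overlapped in all of them, with log2 differences between -0.06 and 0.10. With its pseudogene reads added, an alternative chosen after the data had been seen, PSME2 had 46, 45.5 and 45.6 CPM in SCML4. In EV it then had 47.9, 49.5 and 47.1 CPM, so that the groups no longer overlapped. Downward separation occurred in 5.36% of all tested genes. The summed log2 difference of PSME2 was -0.07 (95% interval -0.27 to 0.12, adjusted p = 0.926 by limma). Per kilobase PSME3 was the highest of the class at 76.4 CPM and PSME4 the lowest at 11.4. PSME2 over PSME1 per kilobase was 0.912, 0.829 and 0.858 in SCML4 and 1, 0.96 and 0.953 in EV, so that every SCML4 library had a lower ratio than every EV library. That ratio was chosen after its values were seen and carries no test, and 32.1% of the reads of the PSME2 family lie on pseudogenes. PSMF1 (PI31), first described as an inhibitor of the core, had 148.3, 137.7 and 152.1 CPM in SCML4 and 119.7, 139.6 and 137.4 CPM in EV. Its log2 difference was 0.14 (95% interval -0.04 to 0.33, adjusted p = 0.866 by limma-trend), and 0.07 without EV replicate 1.

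Libraries of 1 group differed in their overall proteasome level as much as the groups did. The 47 genes summed to 3619, 3465.8 and 3253.4 CPM in the SCML4 libraries and to 3153.3, 3364.8 and 3498.9 CPM in the EV libraries. SCML4 replicate 1 held the highest level of 19 of the 47 genes (40.4%, against 15.8% of all tested genes). EV replicate 1 held the lowest level of 21 of them (44.7%, against 28.3% of all tested genes). The median deviation of the 47 genes from their own mean was 0.06, 0.04 and -0.06 on the log2 scale in the SCML4 libraries and -0.09, -0.03 and 0.05 in the EV libraries.

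The log2 difference also went with base composition. GC content of the principal transcripts of the 47 genes ran from 36% to 60.1%, with a median of 49.9%. Of the 24 genes at or above that median, 20 had a positive log2 difference, with a median of 0.09, and of the 23 below it 10 did, with a median of -0.03. Across the 47 genes, which share the same 6 libraries, the Spearman correlation of the log2 difference with GC content was 0.6, against 0.35 over 13347 tested genes with a known GC content. Without EV replicate 1 it was 0.46 over the 47 genes. After each library was corrected for GC content and length it was 0.24, and 26 genes had a positive difference with a median of 0.006. Of the 5 genes of smallest p, PSMD3 had 58.6%, PSMD8 57.2%, PSMD2 54.3%, PSMF1 47.5% and PSMA8 36% GC. The part of GC content in these differences was not tested.

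**Figure D5:**
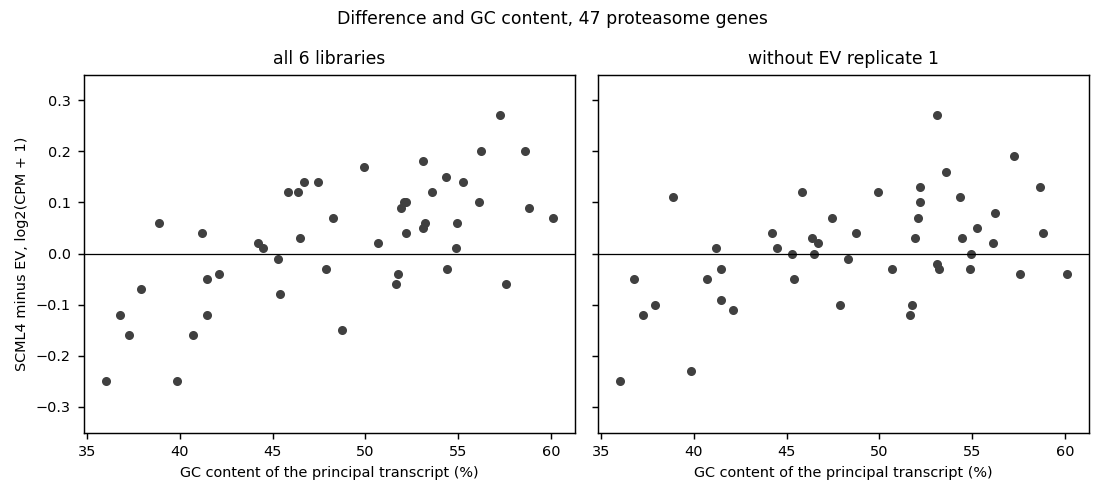
Log2 difference, SCML4 minus EV, on log2(CPM + 1) against the GC content of the principal transcript, 1 point per proteasome gene, with all 6 libraries (left) and without EV replicate 1 (right). With all libraries the points climb with GC content (Spearman 0.6), and without EV replicate 1 the climb is weaker (0.46).

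A pair of short sequence elements with a known tie to proteasome genes were looked for in the RefSeq promoters, from 250 bases before to 50 bases after the RefSeq gene start (GRCh38.p14), which were at hand for 42 of the 48 genes. NFE2L1, which raises proteasome transcription when the proteasome is inhibited, binds antioxidant response elements, searched here as TGACNNNGC and its reverse complement GCNNNGTCA. They were in 13 of the 42 promoters (31%), against 13.6% of 27305 promoters and 15.4% of those of tested genes. Interferon-stimulated response elements, which IRF factors bind, were searched as GAAANNGAAA and TTTCNNTTTC and were in 6 of the 42 (14.3%), against 3.6% of all promoters and 2.8% of those of tested genes. The letters of neither motif contain those of the other. The windows below show PSMD3, the gene of smallest p, with the first element, and PSME1, PSME2 and PSMB10, of the interferon-responsive part of the system, with the second, 5′ to 3′ on the strand of the gene and with the match in capitals.
PSMD3: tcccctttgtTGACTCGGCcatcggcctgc
PSME1: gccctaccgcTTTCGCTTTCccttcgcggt
PSME2: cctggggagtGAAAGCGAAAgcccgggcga
PSMB10: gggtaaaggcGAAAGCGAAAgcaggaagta

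These lie at chr17:39980760-39980789 (plus strand), chr14:24136189-24136218 (plus), chr14:24146619-24146648 (minus) and chr16:67936852-67936881 (minus). The same core letters, GAAAGCGAAA or their reverse complement, stand in all 3 windows shown of the interferon element. They also stand in the promoter of PSMG4, a chaperone of core assembly. The matches of PSMA4 (GAAAATGAAA) and PSMB4 (GAAAAAGAAA) have other letters, and the promoter of the immunoproteasome gene PSMB9 had no match to this element. PSMB8 was not among the 6 genes with a match either, and its promoter may not have been at hand. The 13 genes with the first element had a median log2 difference of 0.04, 9 of them positive, against 0.01 and 15 of 28 for those without. The 6 genes with the second had -0.035, 2 of them positive, against 0.03 and 22 of 35. A match is a stretch of letters and was not measured as a bound site.

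Lists of genes around the proteasome were read in the same fit. Of 17 associated factors without a PSM symbol (such as the ubiquitin receptor ADRM1, the core chaperone POMP and the unfoldase VCP), 0 passed the adjusted threshold of limma-trend (0.00706% of all tested genes did), 1 had an unadjusted p under 0.05 (5.27% of all tested genes), and the median log2 difference was 0.04. SEM1, the smallest cap subunit, had 18.4, 18.2 and 19.1 CPM in SCML4 and 16.1, 15.1 and 17.5 CPM in EV, and ADRM1 had 63.3, 50.2 and 46.6 CPM in SCML4 and 38.2, 41.3 and 55.4 CPM in EV.

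Among 11 regulators of proteasome genes, 0 were called by limma-trend and 1 had an unadjusted p under 0.05, against 0.00706% and 5.27% of all tested genes, and the median was 0.07. STAT3 was that gene, with 147.2, 154.6 and 151.2 CPM in SCML4 and 131, 134 and 135.3 CPM in EV, a log2 difference of 0.18 (adjusted p = 0.866 by limma-trend) and 0.16 without EV replicate 1. DDI2, the protease that activates NFE2L1, had -0.13, and MAFK, a partner of NFE2L1, 0.19, or 0.01 without EV replicate 1. Of 6 genes for ubiquitin and its activating enzymes, 0 were called and 1 had an unadjusted p under 0.05, against the same 0.00706% and 5.27%. That was UBB, at 62.8, 65 and 61.5 CPM in SCML4 and 75.8, 71 and 71.7 CPM in EV, a log2 difference of -0.20 (adjusted p = 0.866 by limma-trend) and -0.18 without EV replicate 1. UBA6 had a log2 difference of -0.13, with its highest level in EV replicate 1.

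The immunoproteasome supplies peptides to HLA class I. Of 12 genes of peptide loading and class I, 0 were called by limma-trend, 2 had an unadjusted p under 0.05 (CALR at a log2 difference of 0.22 and HLA-E at 0.28, or 0.15 and 0.19 without EV replicate 1), and the median was 0.06. Over all tested genes the shares were 0.00706% called and 5.27% at an unadjusted p under 0.05.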

How the data were processed

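Per the labels' protocols, TRIzol was used for RNA and a SMARTer mRNA-seq kit for the libraries. FastQC, STAR and SAMtools and the build hg19 are named without versions, per the submitters' processing notes. The sources used here do not give the counting tool, its use of strand or the annotation. The authors deposited FPKM, per the file headers, with 1 column per library. Each value is a multiple of 1 read's worth, and reads were recovered from them as whole numbers for all 23897 genes above 0 (100%, tolerance 0.002 reads). For 719 genes a common divisor of the counts was restored from the gene length that the FPKM imply. Those lengths do not follow the genes' own (Spearman 0.013 with GENCODE 29 over 11465 genes), so CPM was used in place of FPKM. Between 99.63% and 99.65% of each library total lay on the table.

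SCML4 minus EV was fitted with limma-trend 3.58.1 in R 4.3.3 on log2(CPM + 1), for 14160 genes averaging 10 or more reads, with Benjamini-Hochberg adjustment over all of them and a threshold of 0.05, two-sided. An exact permutation test of 3 against 3 libraries was not used, since it cannot pass that threshold. The fit was also run on simulated reads, drawn with the same spread for all genes and with no outlying library. The data differ in both respects, so that run does not measure how the fit performs on them. No libraries were duplicates, since within groups the chi-square was 2.6 to 11.1 per gene. The members, gene lists and tests were chosen with earlier results of these data known. Values per library are given for catalytic and tissue-restricted subunits, activators, PSMG chaperones, the 5 members of smallest p and the extremes per kilobase of each class, and in other lists for up to 3 genes of smallest p, some of which are not reported here. Alternatives were other pseudocounts, filters, scalings, the FPKM scale, limma-voom, library weights, a correction for GC content and length (lowess, span 0.3), a replicate block, and each library left out. Coordinates and lengths are from GENCODE 29 (GRCh38), since no annotation of hg19 was used here.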

Additional observations from a re-analysis of the deposited data

How the results depend on the processing

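The count of called proteasome genes was 0 under every alternative. The lowest adjusted p that any of them reached was 0.414 (library weights in limma). Their median log2 difference of 0.041 moved by less than the replicate spread of 0.068 under each alternative, was 0.006 with the GC content and length correction, and ran from 0.008 without SCML4 replicate 1 to 0.107 without SCML4 replicate 3. Likewise, the log2 ratio of immunoproteasome to constitutive reads stayed within its replicate spread on the FPKM scale, per kilobase and with each library left out, the settings run for it. It was -0.076, and ran from -0.147 without SCML4 replicate 3 to -0.006 without SCML4 replicate 2. Over all genes, 1 was called, against 2 with median-of-ratios scaling, 0 on log2(FPKM + 1) by limma-trend (781 at an unadjusted p under 0.05), 19 with library weights, 3 with the GC content and length correction, and 1 to 14 with a library left out, with 14 without EV replicate 1 and 2 without EV replicate 3 or SCML4 replicate 1. With a replicate block 2 were called and the median of the proteasome genes was 0.041. The labels do not say whether a replicate number marks a shared culture or day. Same-numbered libraries correlated at -0.057, -0.113 and -0.048 after each group was centred on its own mean. With 3 libraries per group these values cannot decide whether the numbers pair the libraries. Of 490 values of 29 named proteasome genes, 26 had the other sign, all of them for differences that no fit called. The correction gave PSMB6 -0.02, PSMB8 -0.06, PSMB10 -0.02 and PSME3 -0.02. Library weights gave PSMB8 -0.04, PSME3 -0.02 and PSMG4 0.002, and adding pseudogene reads gave PSMC1 0.02. With a library left out, log2 differences ran from -0.11 to 0.03 for PSMA4, -0.02 to 0.2 for PSMB3, -0.1 to 0.0039 for PSMB4, -0.03 to 0.14 for PSMB6, -0.05 to 0.05 for PSMB8, -0.04 to 0.18 for PSMB10, -0.34 to 0.04 for PSMC1, -0.18 to 0.06 for PSMD9, -0.1 to 0.02 for PSMD11, -0.03 to 0.07 for PSME3, -0.04 to 0.13 for PSMG2 and -0.06 to 0.03 for PSMG4. The cause of these shifts was not tested. At 8953671 to 10336597 reads per library, depth limits what can be said of PSMB10, which had few reads. PSMC1 and PSMA2 also had few reads on their own rows, where 97.6% and 87.6% of the reads of each family lay on pseudogene rows. Intervals cover the spread between 3 libraries only.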

Other observations

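Rows near the proteasome genes that the name rule left out also held reads. PSMA3-AS1 had 739, 888 and 788 reads in the SCML4 libraries and 1045, 792 and 843 in the EV libraries. PSMG3-AS1 had 132, 147 and 140 reads in SCML4 and 103, 107 and 107 in EV, and PSMB8-AS1 had 95, 88 and 73 in SCML4 and 92, 77 and 80 in EV. PSME3IP1 had 998, 1106 and 1007 reads in SCML4 and 1030, 909 and 994 in EV, and PSMC3IP, a meiotic recombination factor, had 114, 119 and 129 in SCML4 and 138, 105 and 142 in EV. In GENCODE 29, 23 of the 48 proteasome genes share exonic bases with another gene, 19 of them with one on the opposite strand and 8 with one on the same strand. These rows were chosen after their values were seen. By limma-trend none of the 5 was called, with adjusted p between 0.866 and 0.984. PSMG3-AS1 alone of them had an unadjusted p under 0.05 (log2 difference 0.37, unadjusted p = 0.0168, adjusted p = 0.866 by limma-trend), against 5.27% of all tested genes, and 0.34 without EV replicate 1. In CPM its SCML4 values were all above its EV values, which occurred in 6.29% of all tested genes. The same held for PSME3IP1, at 110.1, 107 and 112.5 CPM in SCML4 and 106.9, 101.4 and 102.7 CPM in EV.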
